A study of Mus musculus with 24 samples.

Results

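Sorted populations of group 3 innate lymphoid cells (ILC3) were compared in mice labelled DKO, in which the genes of the nuclear receptors REV-ERBα and REV-ERBβ are targeted in blood cells. The populations are labelled CCR6 and NKp46. The comparison uses 6 of the 24 RNA-seq libraries of the series, 3 per population, taken by their labels alone. Of the 55487 genes in the count table, 21286 had enough reads to be tested.

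The DKO mice carried Vav1-Cre, a Cre recombinase driven by a promoter active in blood cells, together with floxed NR1D1 and NR1D2. The WT mice were littermates with the same floxed genes, and their 3 CCR6 and 3 NKp46 libraries serve here as the matching comparison. All mice were 8 to 12 weeks old, and the cells were sorted from the lamina propria of the small intestine. The ILC1 and DN libraries of both genotypes entered only the estimate of spread. No treatment is named. The labels do not give the time of day of collection, nor whether libraries came from separate or pooled animals. Every p-value therefore measures the spread between these libraries, which may be technical.

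ILC3 are tissue lymphocytes without rearranged antigen receptors that make interleukins 17 and 22. CCR6-positive ILC3 resemble lymphoid tissue inducer (LTi) cells, carry lymphotoxins and can display MHC class II. NKp46-positive ILC3 also use the transcription factor T-bet, as natural killer cells do, and share receptors and type 1 effector genes with those cells. REV-ERBα and REV-ERBβ repress genes that carry ROR response elements, among them genes of the circadian clock.

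The CCR6 libraries of DKO mice held 41.7 to 62.9 M counts (M, 1e6 counts) and the NKp46 libraries 23.7 to 29.2 M, so the CCR6 population was sequenced more deeply. Rank correlations between replicate libraries ran from 0.960 to 0.962 in CCR6 and from 0.933 to 0.937 in NKp46 (Spearman, across genes of 1 pair of libraries, which are not independent). The first principal component of the 6 libraries held 35.6% of the variance and separated the populations. The second held 22.0% and separated NKp46 replicates 1 and 2. Among the libraries used only for the spread, WT ILC1 replicate 2 stood apart, with the fewest counts (12.8 M) and 11.1% of them on ribosomal RNA genes. Levels are CPM, counts scaled to 1e6 per library after normalization, listed by replicate 1, 2 and 3. Differences are log2 fold changes of CCR6 over NKp46 with their standard error, and each adjusted p comes from the quasi-likelihood test of edgeR, adjusted over all tested genes by the Benjamini-Hochberg method. A gene is called higher or lower at an adjusted p under 0.05.

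The targeted genes were read first. Nr1d1 (chromosome 11, 98767932 to 98775333, minus strand, GRCm38) stood at 1560, 1482 and 1459 CPM in DKO CCR6 and at 1002, 1162 and 1019 CPM in DKO NKp46. These libraries did not overlap, but the difference of 0.50 ± 0.20 was not called (adjusted p = 0.20). It was called by limma voom (adjusted p = 0.00802), in a fit of the 6 libraries alone (0.0167) and without WT ILC1 replicate 2 (0.00476). Nr1d2 stood at 72.2, 115 and 142 CPM in CCR6 and at 110, 129 and 149 CPM in NKp46, with overlapping libraries (-0.24 ± 0.36, adjusted p = 0.82). The mean Nr1d1 level in WT was 574 CPM in CCR6 and 601 CPM in NKp46, below every DKO library, so these gene-level counts do not check the deletion. Exons of Nr1d1 overlap those of Thra on the opposite strand by 263 bases. The library kit named in the labels does not mark strand, so reads of overlapping genes on opposite strands cannot be told apart. Vav1, whose promoter drives the Cre, did not differ by the test (0.12 ± 0.14, adjusted p = 0.76).

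The markers of the sort followed the labels. Ccr6 (chromosome 17, 8236043 to 8257141, plus strand), the receptor for the chemokine CCL20, stood at 882, 702 and 714 CPM in CCR6 and at 5.43, 0.716 and 6.85 CPM in NKp46 (7.47 ± 0.85, adjusted p = 6.7e-06). Ncr1 (chromosome 7, 4337724 to 4345164, plus strand), which encodes NKp46, stood at 2.55, 2.58 and 2.63 CPM in CCR6 and at 551, 397 and 445 CPM in NKp46 (-7.49 ± 0.37, adjusted p = 1.7e-11). No library of one population came near the level of the other for either gene. Cd4, carried by part of the LTi-like cells, was at 472, 338 and 274 CPM against 19.8, 25.7 and 16 CPM (4.14 ± 0.45, adjusted p = 2.0e-06). Since the populations are named for the products of Ccr6 and Ncr1, their difference describes the gates and is not a finding.

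**Figure D1:**
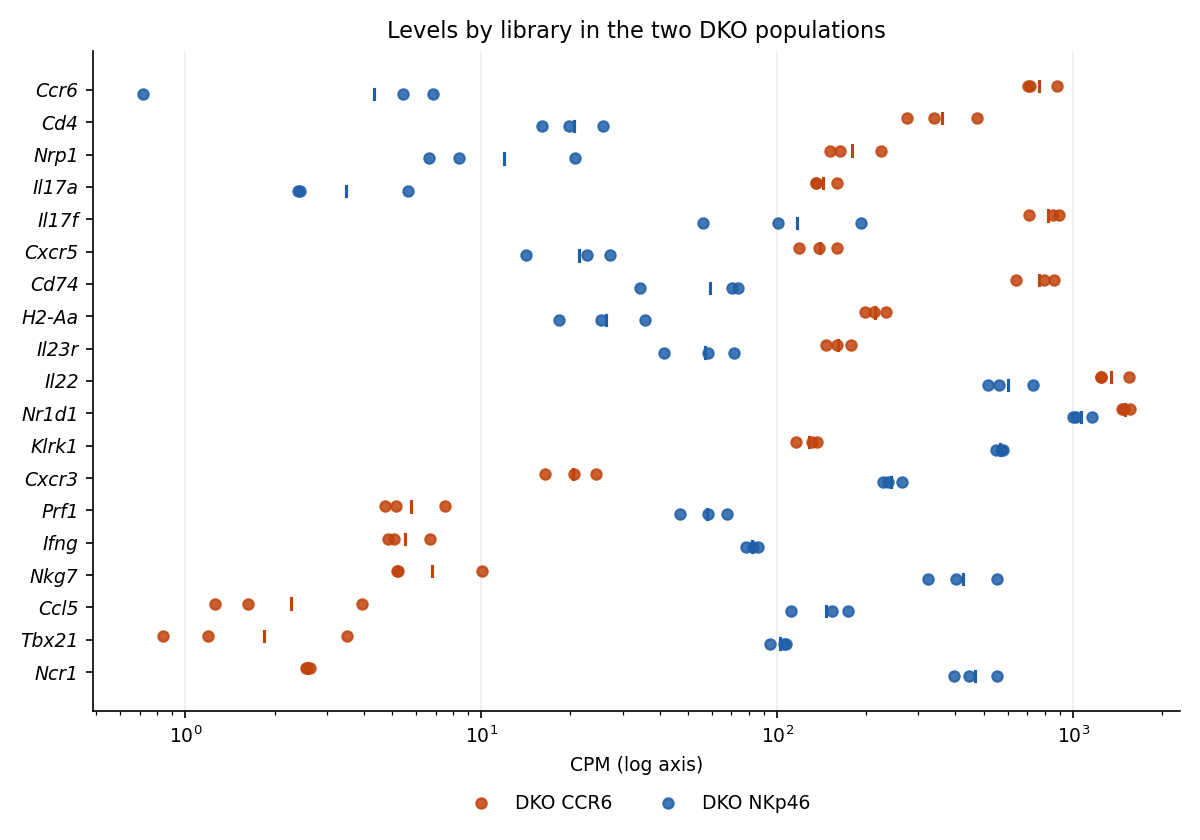
CPM on a log axis for 19 genes in the 3 DKO CCR6 libraries (orange) and the 3 DKO NKp46 libraries (blue), with points for libraries and bars for group means. The genes from Ccr6 to Nr1d1 have higher CCR6 points and those from Klrk1 to Ncr1 higher NKp46 points, with no overlap of libraries in any of the 19.

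Across the transcriptome, 1022 genes differed between the DKO populations, 526 higher and 496 lower in CCR6 (4.8% of tested genes, 2.47% higher and 2.33% lower). The median log2 fold change over all tested genes was 0. At an unadjusted p under 0.05 there were 3499 of the 21286 tested genes. Libraries did not overlap for 4888 genes (23%, with 12.6% higher and 10.4% lower). Leaving out DKO CCR6 replicate 1 or 2 brought the count to 659 or 663, and leaving WT ILC1 replicate 2 out of the spread brought it to 1493.

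Several of the largest differences were genes of which 1 population held almost no reads. Ip6k3, an inositol hexakisphosphate kinase, had no count in any NKp46 library and 6.29, 10.6 and 7.88 CPM in CCR6. CCR6 was at least 224-fold higher, taking 3 counts over the NKp46 group as the floor. Idi2, an isopentenyl diphosphate isomerase, also had no NKp46 count, and CCR6 was at least 213-fold higher. Cd40, a costimulatory receptor of antigen-presenting cells, was at 7.72, 5.56 and 5.45 CPM in CCR6 and at 0.0353, 0.0358 and 0 CPM in NKp46. Fblim1, a filamin-binding protein, had no NKp46 count either and stood at 7.34, 3.66 and 4.01 CPM in CCR6. Col4a1, a collagen chain, had the same pattern (8.38, 4.75 and 3.44 CPM), but its call was lost in 4 of the 6 fits that left out 1 library (highest adjusted p = 0.0797, without DKO NKp46 replicate 1). Parvb, Tmem51 and Adamts2 held 3 counts each over the NKp46 group and 5.43 CPM or more on average in CCR6. In the other direction Slc6a20a, an amino acid transporter, stood at 0.0988, 0.162 and 0.0458 CPM in CCR6 and at 32.1, 19.7 and 34.2 CPM in NKp46 (-8.05 ± 0.62, adjusted p = 1.2e-08). Nmbr, a neuromedin B receptor, held 3 counts over the CCR6 group and 4.97, 5.16 and 5.94 CPM in NKp46.

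Transcription factors that set ILC fate split between the populations. Of 27 lineage factors tested, 4 were called higher in CCR6 (Tox2, Tcf7, Batf3 and Bcl6). Another 7 were called lower (Tbx21, Ikzf2, Ikzf3, Zbtb16, Lef1, Prdm1 and Zfp683), and the list median was -0.29. Shares over all tested genes were 2.47% higher and 2.33% lower. Zfp683 was near the floor, with no CCR6 count and 0.917, 0.215 and 0.551 CPM in NKp46. Tbx21, which encodes T-bet, stood at 0.839, 1.19 and 3.50 CPM in CCR6 and at 107, 105 and 94.2 CPM in NKp46 (-5.82 ± 0.64, adjusted p = 2.7e-06). Tox2, an HMG-box factor, was 3.45 ± 0.48 higher in CCR6 (adjusted p = 5.5e-05). Tcf7, which encodes TCF-1, was 0.63 ± 0.12 higher, and Lef1, its relative, was -1.37 ± 0.20 (adjusted p = 0.0013 and 1.0e-04). Those 2 related factors therefore differed in opposite directions. Prdm1, which encodes Blimp-1, was -2.26 ± 0.31 and Bcl6, a repressor that opposes Blimp-1 in lymphocytes, was 2.44 ± 0.49 (adjusted p = 4.2e-05 and 0.0031). Gata3, Id2, Maf and Ahr were not called. Id2 was called higher in CCR6 by every alternative that kept all 6 libraries, among them DESeq2 and limma voom (adjusted p = 0.0147 and 0.0294). The calls of Ikzf2 and Ikzf3, Ikaros family factors, were lost in 2 and 4 of the 6 fits that left out 1 library, with the highest adjusted p without DKO CCR6 replicate 2 (0.0994 and 0.147).

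Interleukin 17 genes were higher in CCR6 and interferon gamma was lower. Of 24 cytokines and TNF family ligands tested, 5 were called higher in CCR6 (Il17a, Il17f, Lta, Hbegf and Bmp2). Another 3 were called lower (Ifng, Tnfsf10 and Il2), beside 2.47% higher and 2.33% lower over all tested genes. The list median was 0.35, or 0.25 with the genes at 0 in 1 group set to their bound. Il17a (chromosome 1, 20730905 to 20734496) stood at 135, 135 and 159 CPM in CCR6 and at 2.40, 5.66 and 2.44 CPM in NKp46 (5.35 ± 0.75, adjusted p = 8.9e-05). Il17f, its neighbour and partner in the IL-17A/F dimer, stood at 854, 898 and 710 CPM against 101, 192 and 56.0 CPM (2.82 ± 0.55, adjusted p = 0.0023). Both IL-17 genes were present in NKp46 cells at a level far under the lowest CCR6 library. Il22, the epithelial barrier cytokine, was at 1243, 1545 and 1240 CPM in CCR6 and at 517, 731 and 561 CPM in NKp46. Its libraries did not overlap, but the difference of 1.15 ± 0.41 was not called (adjusted p = 0.13). Limma voom and a fit of the 6 libraries alone did call it (adjusted p = 0.0354 and 0.00191). Ifng, the type 1 cytokine, stood at 4.82, 5.08 and 6.71 CPM in CCR6 and at 85.7, 82.8 and 78.7 CPM in NKp46 (-3.90 ± 0.52, adjusted p = 3.0e-05). A further gene shares 26% of the exon bases of Ifng on the same strand, so its count may be split. Lta, one of the lymphotoxin genes, was 0.85 ± 0.15 higher in CCR6, and Bmp2, a bone morphogenetic protein, was 4.81 ± 0.88 higher (adjusted p = 9.0e-04 and 0.0013). Il2 was -2.00 ± 0.27 and Tnfsf10, which encodes TRAIL, was -1.84 ± 0.24 (adjusted p = 4.0e-05 and 2.3e-05).

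The 250 bases before the start sites of Il17a, Il17f and Il23r are shown because these 3 genes of the interleukin 17 and 23 axis were higher together in CCR6. Capitals mark AGGTCA or its reverse complement TGACCT, a half-site of nuclear receptors that include RORs and REV-ERBs. Both populations compared are labelled DKO, and no binding was measured. The sequences are RefSeq's on GRCm38.p6, on the strand of the gene, at chr1:20730655-20730904 (plus), chr1:20784271-20784520 (minus) and chr6:67491856-67492105 (minus).
Il17a: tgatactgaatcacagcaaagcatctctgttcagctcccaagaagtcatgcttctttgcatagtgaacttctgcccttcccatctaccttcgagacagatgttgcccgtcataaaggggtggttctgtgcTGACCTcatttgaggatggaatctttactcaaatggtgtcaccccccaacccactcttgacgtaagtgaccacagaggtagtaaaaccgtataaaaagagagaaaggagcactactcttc
Il17f: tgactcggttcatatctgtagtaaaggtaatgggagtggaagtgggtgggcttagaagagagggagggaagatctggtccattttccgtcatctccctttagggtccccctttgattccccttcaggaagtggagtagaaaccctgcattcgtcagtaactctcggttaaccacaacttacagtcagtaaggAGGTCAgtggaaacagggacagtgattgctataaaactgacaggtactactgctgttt
Il23r: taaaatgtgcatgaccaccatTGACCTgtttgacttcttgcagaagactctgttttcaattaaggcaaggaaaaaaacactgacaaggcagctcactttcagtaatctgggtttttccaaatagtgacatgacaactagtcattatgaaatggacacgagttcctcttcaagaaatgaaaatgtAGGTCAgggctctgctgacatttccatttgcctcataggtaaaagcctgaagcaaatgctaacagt
The match begins 120 bases before the start site in Il17a, 58 bases before it in Il17f, and 229 and 66 bases before it in Il23r. On both strands AGGTCA was found in 14.0% of all 32851 RefSeq windows of this length. By gene, 13.5% of 12079 tested genes with a window held it, 20.1% of 388 called higher in CCR6 and 11.0% of 354 called lower. GGTGTG, a core of the T-box site, was found on either strand in 18.4% of the tested genes, 20.6% of those higher and 20.6% of those lower. These shares carry no test, and a match is not shown to be a bound site.

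Cytokine receptors were called in both directions. Of 34 cytokine receptors tested, 7 were called higher in CCR6 (Il23r, Il17re, Il2ra, Il7r, Tnfrsf11a, Il1r1 and Tnfrsf25). Another 5 were called lower (Il12rb2, Il18rap, Il21r, Ifngr1 and Tnfrsf18), and the list median was -0.07. Shares over all tested genes were 2.47% higher and 2.33% lower. Il23r, the receptor of the main ILC3-activating cytokine, stood at 177, 159 and 146 CPM in CCR6 and at 41.3, 71.2 and 58.1 CPM in NKp46 (1.5 ± 0.20, adjusted p = 2.4e-05). Il17re, part of the IL-17C receptor, stood at 391, 334 and 313 CPM against 160, 176 and 141 CPM (1.12 ± 0.13, adjusted p = 3.8e-06). The CCR6 libraries of both genes lay above every NKp46 library. Il7r, the receptor for the survival cytokine IL-7, was 0.68 ± 0.15 higher, Il2ra 0.77 ± 0.14 and Tnfrsf11a, which encodes RANK, 3.54 ± 0.76 (adjusted p = 0.0074, 0.0012 and 0.0057). Il12rb2, the subunit that gives cells their response to IL-12, was at 0.593, 0.756 and 0.550 CPM in CCR6 and at 11.5, 6.63 and 5.79 CPM in NKp46 (-3.65 ± 0.58, adjusted p = 2.7e-04). Tnfrsf18, which encodes GITR, was -0.99 ± 0.14 (adjusted p = 6.3e-05). Serbp1 on the opposite strand covers 40.0% of the exon bases of Il12rb2, and an antisense gene covers 27.2% of those of Tnfrsf18. The calls of Il1r1, Tnfrsf25, Il18rap and Ifngr1 were lost in 6, 5, 5 and 3 of the 6 fits without 1 library. Their highest adjusted p was 0.0946 without DKO NKp46 replicate 3, 0.15 without DKO CCR6 replicate 1, 0.195 without DKO NKp46 replicate 3 and 0.117 without DKO CCR6 replicate 2.

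Of 21 chemokine and migration receptors tested, 2 were called higher in CCR6 (Ccr6 and Cxcr5) and 4 lower (Ccr9, Ccr2, Cxcr3 and Gpr34), with a median of -0.14. Of these, Ccr6 was fixed by the sort. Shares over all tested genes were 2.47% higher and 2.33% lower. Cxcr5, which guides cells to lymphoid follicles, stood at 160, 139 and 119 CPM in CCR6 and at 27.2, 22.8 and 14.2 CPM in NKp46 (2.7 ± 0.51, adjusted p = 0.0018). Cxcr3, the type 1 homing receptor, stood at 24.5, 16.5 and 20.5 CPM against 264, 227 and 236 CPM (-3.56 ± 0.19, adjusted p = 3.6e-11). Ccr9, which guides lymphocytes to the small intestine, stood at 80.4, 63.8 and 83.1 CPM against 315, 267 and 263 CPM (-1.89 ± 0.22, adjusted p = 3.9e-06). Libraries of the populations did not overlap for any of these 3 receptors. Ccr2 was -2.30 ± 0.19 and Gpr34, a lysophosphatidylserine receptor, -1.93 ± 0.27 (adjusted p = 2.7e-08 and 5.6e-05). Cxcr6, a receptor used by gut ILC3, was not called. Of 12 chemokines tested, 4 were called lower (Ccl5, Xcl1, Ccl4 and Ccl3) and none higher by edgeR, with 1 higher at an unadjusted p under 0.05, 1 by DESeq2 and 0 by limma voom. Ccl5 was at 3.95, 1.26 and 1.63 CPM in CCR6 and at 154, 174 and 111 CPM in NKp46 (-5.99 ± 0.37, adjusted p = 3.5e-10). Xcl1, which draws cross-presenting dendritic cells, held 4 counts over the CCR6 group and stood at 35.6, 30.3 and 34.5 CPM in NKp46. The Ccl3 call was lost in 2 of the 6 fits without 1 library, with an adjusted p of 0.0596 without DKO NKp46 replicate 1, and by limma voom (0.101) and in a fit of the 6 libraries alone (0.112).

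LTi-like genes were mostly higher in CCR6. Of 25 tested, 17 were called higher and none lower by edgeR, beside 2.47% and 2.33% of all tested genes. The list median was 2.04, and the 17 include Ccr6, which was fixed by the sort. At an unadjusted p under 0.05, 1 was lower, and DESeq2 and limma voom each called 0 lower. This list shares members with those of cytokines, receptors and MHC class II. Beside the sort marker and the cytokines above, Nrp1, a semaphorin co-receptor, stood at 225, 163 and 151 CPM in CCR6 and at 6.67, 20.7 and 8.42 CPM in NKp46 (3.91 ± 0.63, adjusted p = 3.3e-04). Batf3, an AP-1 factor, was 2.04 ± 0.44 higher (adjusted p = 0.0061). Kit, Ltb, Tnfsf11 and Ccr7 of the same list were not called. A fit of the 6 libraries alone did call Tnfsf11, which encodes RANKL, lower in CCR6 (-0.74, adjusted p = 0.0328).

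Of 18 genes of MHC class II presentation, 8 were called higher in CCR6 and none lower by edgeR. These counts stand beside 2.47% and 2.33% of all tested genes, and the list median was 1.39. None was lower at an unadjusted p under 0.05 (0), by DESeq2 (0) or by limma voom (0). Cd74, the invariant chain, stood at 862, 640 and 799 CPM in CCR6 and at 70.2, 34.4 and 73.8 CPM in NKp46 (3.69 ± 0.23, adjusted p = 5.5e-10). H2-Aa, which encodes the alpha chain of I-A, stood at 213, 198 and 233 CPM against 25.4, 18.3 and 35.7 CPM (3.02 ± 0.24, adjusted p = 2.5e-08). The lowest CCR6 library was thus several-fold above the highest NKp46 library for both. H2-Ab1, the beta chain, was 2.04 ± 0.24 higher, H2-Eb1 3.42 ± 0.53 and H2-Oa, a chain of the peptide-loading regulator H2-O, 2.61 ± 0.39 (adjusted p = 8.0e-06, 2.2e-04 and 1.2e-04). Cd83, which stabilizes MHC class II at the cell surface, was 2.7 ± 0.32 higher (adjusted p = 8.0e-06). Ciita, the master regulator of these genes, was not called. The H2 genes resemble each other, so reads could be split between them. Reads of H2-Oa and of an antisense gene over 22.8% of its exon bases cannot be told apart. The Ctss call was lost without DKO CCR6 replicate 1 (adjusted p = 0.0564).

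Of 32 type 1 and cytotoxic genes tested, 22 were called lower in CCR6 and none higher by edgeR. These counts stand beside 2.33% and 2.47% of all tested genes, and the list median was -3.35. None was higher at an unadjusted p under 0.05 (0), by DESeq2 (0) or by limma voom (0). Nkg7, a granule membrane protein, stood at 10.0, 5.17 and 5.22 CPM in CCR6 and at 551, 402 and 324 CPM in NKp46 (-5.96 ± 0.32, adjusted p = 5.6e-11). Ctsw, a protease of cytotoxic lymphocytes, stood at 15.1, 12.4 and 14.1 CPM against 489, 436 and 550 CPM (-5.15 ± 0.19, adjusted p = 1.6e-13). Prf1, which encodes perforin, stood at 5.15, 7.53 and 4.74 CPM against 67.8, 58.4 and 47.0 CPM (-3.31 ± 0.27, adjusted p = 2.3e-08). CCR6 cells therefore held some perforin reads. Gzma, which encodes granzyme A, had no count in the 3 CCR6 libraries and stood at 10.8, 21.7 and 8.66 CPM in NKp46, which was at least 732-fold higher with 3 counts over the CCR6 group as the floor. Gzmb was at 0.247, 3.06 and 3.48 CPM against 25.5, 25.9 and 18.9 CPM (-3.39 ± 0.59, adjusted p = 7.5e-04). Granzyme genes resemble each other, and reads could be split between them. Fasl, the ligand of the death receptor Fas, held 2 counts over the CCR6 group and 13.1, 9.42 and 13.7 CPM in NKp46. Cd160, an activating receptor, was -2.16 ± 0.16 (adjusted p = 4.4e-09). Eomes, which marks natural killer cells rather than ILC3, held 3 counts over the CCR6 group and 5 over the NKp46 group.

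Of 32 natural killer receptor genes tested, 22 were called lower in CCR6 and none higher by edgeR. These counts stand beside 2.33% and 2.47% of all tested genes. Again 0 of the list were higher at an unadjusted p under 0.05, 0 by DESeq2 and 0 by limma voom. The genes called lower include Ncr1, which was fixed by the sort. The median of the list was -2.23, or -2.48 with the genes at 0 in 1 group set to their bound. Klrb1c, which encodes NK1.1, stood at 3.87, 2.7 and 4.19 CPM in CCR6 and at 107, 101 and 85 CPM in NKp46 (-4.77 ± 0.20, adjusted p = 6.5e-13). Klrk1, which encodes NKG2D, stood at 136, 132 and 116 CPM against 578, 550 and 570 CPM (-2.15 ± 0.22, adjusted p = 8.7e-07). Both populations thus held reads of Klrk1 and Klrb1c, and for neither gene did their libraries overlap. The gene of the inhibitory NKG2A chain, Klrc1, was -3.66 ± 0.51, and Klrc2, its activating relative, was -5.57 ± 0.44 (adjusted p = 5.8e-05 and 2.0e-08). Slamf7 stood at 0.329, 0.018 and 0.298 CPM against 41.1, 30.1 and 35.3 CPM (-7.36 ± 0.45, adjusted p = 2.5e-10). Cd244a, which encodes 2B4, was -3.27 ± 0.20 and Cd226, which encodes DNAM-1, -1.41 ± 0.17 (adjusted p = 2.2e-10 and 1.1e-05). Hcst, the adaptor of NKG2D, was -1.12 ± 0.14 and Tyrobp, the adaptor DAP12, -1.93 ± 0.35 (adjusted p = 1.6e-05 and 0.0011). The Klra, Klrb1 and Klrc genes are families of near-identical copies, and their counts are uncertain where reads could be split. The call of Fcgr3, an Fc receptor gene, was lost in 3 of the 6 fits without 1 library, with an adjusted p of 0.117 without DKO NKp46 replicate 3.

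**Figure D2:**
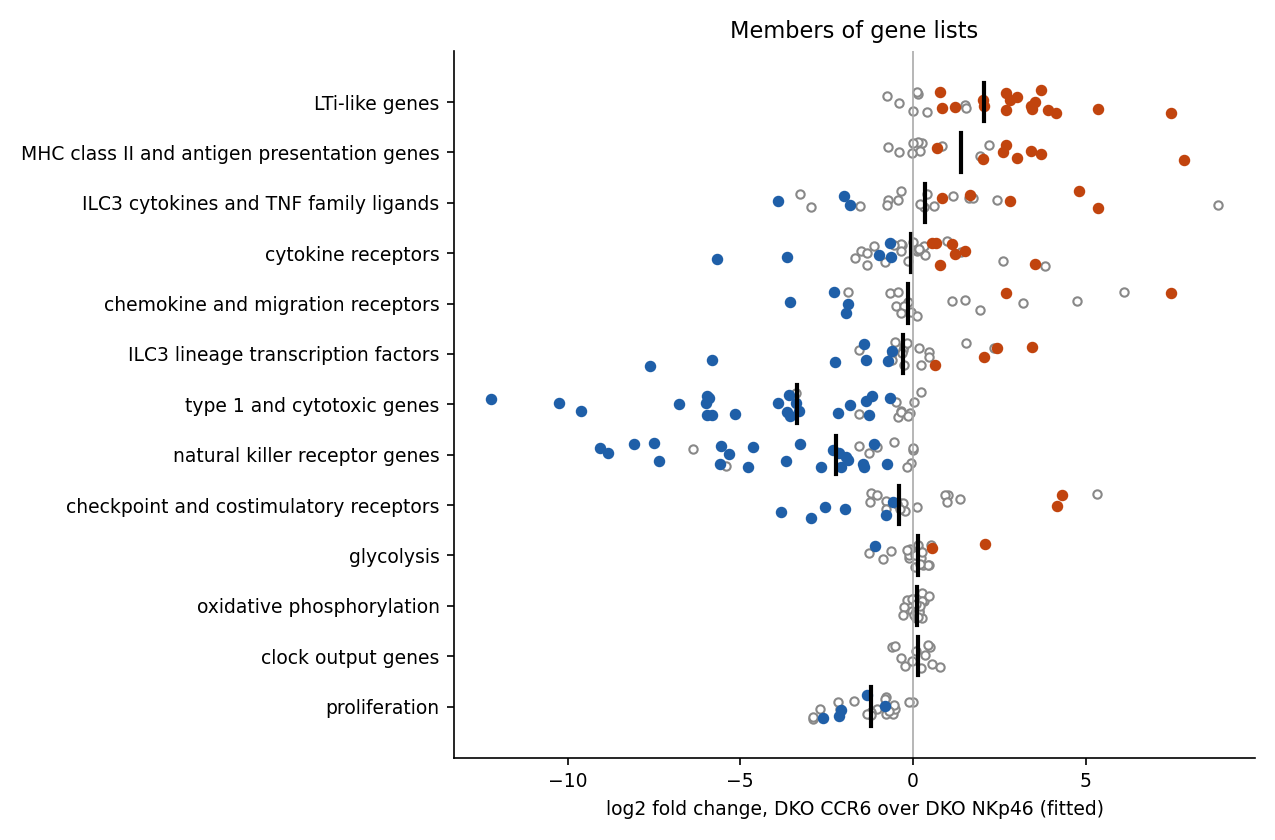
Fitted log2 fold change of DKO CCR6 over DKO NKp46 for each tested member of 13 gene lists, with filled points for called genes (orange higher, blue lower), open points for the rest, and black bars for list medians. The called points of the LTi-like and MHC class II lists lie to the right of 0 and those of the type 1 and natural killer receptor lists to the left, while no gene of oxidative phosphorylation or clock output is filled. Points of genes with no count in 1 population depend on the prior count of the fit.

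Of 24 checkpoint and costimulatory receptors, 2 were called higher in CCR6 (Cd81 and Pdcd1) and 6 lower (Ctla4, Lag3, Vsir, Entpd1, Cd2 and Cd48), with a median of -0.42. Cd81, a tetraspanin, stood at 643, 498 and 416 CPM in CCR6 and at 39.8, 19.1 and 27.8 CPM in NKp46 (4.17 ± 0.56, adjusted p = 3.1e-05). Pdcd1, which encodes PD-1, stood at 25.6, 17.5 and 14.2 CPM against 2.86, 0 and 0 CPM (4.30 ± 0.89, adjusted p = 0.0040), a call lost in a fit of the 6 libraries alone (adjusted p = 0.0730). Lag3, another inhibitory receptor, stood at 5.51, 5.44 and 4.63 CPM against 46.0, 39.0 and 35.7 CPM (-2.95 ± 0.20, adjusted p = 1.2e-09). PD-1 and LAG-3 transcripts were thus highest in opposite populations. Pdcd1 was outside the naming rule and was chosen after its values were seen. Ctla4, the inhibitory receptor CTLA-4, was -2.55 ± 0.38 (adjusted p = 1.4e-04). The calls of Vsir and Cd2 were lost in 4 and 1 of the 6 fits without 1 library (highest adjusted p = 0.116 without DKO NKp46 replicate 2 and 0.0529 without DKO NKp46 replicate 1). Among 24 integrins and adhesion genes, 2 were called higher (Itga4 and Icam2) and 3 lower (Itga1, Selplg and Cdh1), beside 2.47% and 2.33% of all tested genes. The calls of Selplg and Icam2 were each lost in 3 of those fits (highest adjusted p = 0.0846 without DKO CCR6 replicate 2 and 0.142 without DKO CCR6 replicate 1). Itga4, an integrin chain used for gut homing, was 1.37 ± 0.19 higher, and Itga1, which binds collagen and marks tissue-resident type 1 cells, was -5.17 ± 0.50 (adjusted p = 4.1e-05 and 3.5e-07).

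Of 8 clock-related genes that REV-ERBs repress, 1 was called higher in CCR6, namely Bhlhe41, beside 2.47% of all tested genes. None of 12 clock output genes was called by edgeR, with 3 at an unadjusted p under 0.05 (3499 of 21286 over all tested genes), 1 called by DESeq2 and 2 by limma voom. Arntl, which encodes BMAL1, the classical REV-ERB target, stood at 75.8, 88.6 and 94.2 CPM in CCR6 and at 59.0, 90.6 and 81.6 CPM in NKp46, with overlapping libraries (0.16 ± 0.28, adjusted p = 0.86). Arntl was chosen after its values were seen. Bhlhe41, which encodes the clock repressor DEC2, stood at 247, 281 and 282 CPM in CCR6 and at 61.3, 109 and 99.7 CPM in NKp46 (1.59 ± 0.41, adjusted p = 0.023). In WT its mean was 0.722 CPM in CCR6 and 1.36 CPM in NKp46, far under every DKO library. The DKO difference minus the WT difference, 2.5 ± 0.63, was not called (adjusted p = 0.097), although DESeq2 called it (adjusted p = 0.0129), as did a fit of the 12 libraries compared (0.0217) and one without WT ILC1 replicate 2 (0.0303). The population call for Bhlhe41 was lost in 4 of the 6 fits without 1 library (highest adjusted p = 0.121, without DKO NKp46 replicate 1) and without a filter on low counts (adjusted p = 0.0927).

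Of 22 oxidative phosphorylation genes none was called by edgeR, with 3 at an unadjusted p under 0.05, 1 by DESeq2 and 0 by limma voom, and their median was 0.11. Over all tested genes 3499 of 21286 passed that unadjusted threshold. In glycolysis 2 of 24 were called higher (Ldhb and Pfkp) and 1 lower (Slc2a3). Ldhb, a lactate dehydrogenase subunit, stood at 279, 221 and 191 CPM in CCR6 and at 52.3, 66.1 and 45.4 CPM in NKp46 (2.08 ± 0.34, adjusted p = 3.4e-04). Slc2a3, the glucose transporter GLUT3, was -1.11 ± 0.22 (adjusted p = 0.0028). Of 28 lipid genes, Cd36 and Acsl1 were called higher and Lpl lower. Cd36, a fatty acid receptor, was at 41.6, 36.1 and 33.5 CPM against 5.89, 2.26 and 2.28 CPM (3.41 ± 0.75, adjusted p = 0.0072). Lpl, which encodes lipoprotein lipase, was at 49.3, 39.7 and 27.8 CPM against 115, 125 and 98 CPM (-1.53 ± 0.39, adjusted p = 0.021), with WT means of 0.869 and 0.491 CPM. Of 12 genes of arginine and polyamine metabolism, 3 were called higher (Asl, Arg1 and Sat1) and none lower by edgeR, with 2 lower at an unadjusted p under 0.05, 0 by DESeq2 and 0 by limma voom. In cholesterol synthesis 1 of 20 was called higher (Pmvk) and none lower by edgeR, with 2 lower at an unadjusted p under 0.05, 0 by DESeq2 and 0 by limma voom. Over all tested genes 2.47% were called higher and 2.33% lower. The few calls in these metabolic lists are therefore given for single genes and are not read as results about the lists. The calls of Pfkp, Lpl, Acsl1, Arg1 and Sat1 were lost in 4, 4, 3, 2 and 2 of the 6 fits without 1 library. Their highest adjusted p was 0.0854 and 0.123 (without DKO CCR6 replicates 1 and 3), 0.0677 (without DKO CCR6 replicate 3), 0.0629 (without DKO CCR6 replicate 1) and 0.0844 (without DKO NKp46 replicate 1).

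Of 24 proliferation genes, 5 were called lower in CCR6 (Mki67, Top2a, Cdk1, Rrm2 and Hmgb2). None of the 24 was higher by edgeR, at an unadjusted p under 0.05 (0), by DESeq2 (0) or by limma voom (0). Shares called by edgeR over all tested genes were 2.33% lower and 2.47% higher. The list had a median of -1.21, and its summed level was 603 to 846 CPM in CCR6 and 931 to 1402 CPM in NKp46. Mki67, a marker of cycling cells, stood at 3.62, 0.918 and 3.18 CPM against 18.0, 15.7 and 13.7 CPM (-2.62 ± 0.61, adjusted p = 0.012), and Cdk1 was -2.09 ± 0.47 (adjusted p = 0.0084). Those calls were lost without DKO CCR6 replicate 2 for Mki67 (adjusted p = 0.0832) and without DKO CCR6 replicate 3 for Cdk1 (adjusted p = 0.0618), and in 3 of the 6 fits for Hmgb2 (highest adjusted p = 0.0698, without DKO CCR6 replicate 2). Top2a and Rrm2 each lost the call in 5 of the 6 (highest adjusted p = 0.198 and 0.112, both without DKO CCR6 replicate 2). Of 24 immediate early and dissociation stress genes, 4 were called higher (Fos, Egr1, Atf3 and Ier3) and 3 lower (Junb, Nr4a3 and Dusp2). The calls of Ier3 and Junb were lost in 2 and 1 of the 6 fits, with adjusted p of 0.0546 and 0.0568 without DKO NKp46 replicates 3 and 2, and that of Nr4a3 in 4 (highest adjusted p = 0.0992, without DKO CCR6 replicate 1). Examples are Fos (1.01 ± 0.12, adjusted p = 9.7e-06) and Egr1 (1.90 ± 0.29, adjusted p = 1.4e-04), both higher in CCR6. The summed level of this list was 33007 to 37363 CPM in CCR6 and 28248 to 32514 CPM in NKp46, and the part of tissue dissociation in other differences was not tested.

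Of 21 genes by which cells sense neuropeptides and metabolites, 4 were called higher in CCR6 (Ramp1, Vipr2, Rarg and Ret) and 4 lower (P2rx7, Ahrr, Ptger4 and Tiparp). Ramp1, part of the receptor for the neuropeptide CGRP, stood at 592, 526 and 453 CPM in CCR6 and at 62.6, 101 and 78.5 CPM in NKp46 (2.7 ± 0.24, adjusted p = 1.0e-07). Vipr2, a receptor for vasoactive intestinal peptide, was at 20.0, 30.8 and 38.6 CPM against 0, 0.716 and 0.866 CPM (5.83 ± 0.84, adjusted p = 8.9e-05). Both genes were thus higher in every CCR6 library than in any NKp46 library. Rarg, a retinoic acid receptor, was 2.56 ± 0.40 higher (adjusted p = 2.3e-04). P2rx7, an ATP-gated channel, was -1.57 ± 0.20, and Ahrr, a repressor of the aryl hydrocarbon receptor, was -3.83 ± 0.61 (adjusted p = 1.4e-05 and 2.6e-04). Dll1, a Notch ligand, was at 49.3, 61.5 and 52.5 CPM in CCR6 and at 4.06, 1.43 and 4.09 CPM in NKp46 (4.09 ± 0.55, adjusted p = 3.1e-05). An opposite-strand transcript covers 20.6% of the exon bases of Dll1. In the Notch list 1 of 14 was called higher (Dll1) and 1 lower (Maml2). In the TGF-beta list 1 of 18 was called higher (Tgfbr3, with no NKp46 count) and 1 lower (Skap1). Skap1 encodes a signalling adaptor that is not part of the TGF-beta pathway. Over all tested genes 2.47% were called higher and 2.33% lower. The counts of 1 each way are not read as results about those lists. Of 20 NF-kB genes 5 were called higher (Nfkb2, Nfkbie, Tnip1, Map3k14 and Cd83) and 2 lower (Tnfaip3 and Traf1), with Nfkb2 and Map3k14 of the noncanonical arm at 0.89 ± 0.17 and 0.72 ± 0.13 (adjusted p = 0.0024 and 0.0015). Tnfaip3, the NF-kB inhibitor A20, stood at 563, 841 and 842 CPM in CCR6 and at 2005, 1916 and 1929 CPM in NKp46 (-1.38 ± 0.27, adjusted p = 0.0021). Of 18 apoptosis regulators, Bcl2 and Bcl2l11 were called higher and the near-identical Bcl2a1b and Bcl2a1d lower. Another gene on the same strand covers 49.1% of the exon bases of Bcl2a1b. Of 27 interferon-stimulated genes, 2 were called higher (Usp18 and Bst2) and 3 lower (Oas1a, Oas3 and Oasl2), with a median of -0.40. Ret, Bcl2 and Bst2 lost their calls in 4, 3 and 2 of the 6 fits without 1 library, with adjusted p up to 0.0946 (without DKO NKp46 replicate 3), 0.102 (without DKO NKp46 replicate 1) and 0.0994 (without DKO CCR6 replicate 1). Without DKO CCR6 replicate 1 the adjusted p was highest for Tiparp (0.0959, lost in 3 fits), Maml2 (0.156, in 4), Nfkbie (0.252, in 3), Tnip1 (0.144, in 4) and Oas3 (0.0762, in 4). Without DKO CCR6 replicate 2 it was highest for Traf1 (0.225, lost in 4 fits), Bcl2a1b (0.0836, in 3) and Oasl2 (0.256, in all 6). Oas1a lost its call in 5 fits (highest adjusted p = 0.201, without DKO NKp46 replicate 2) and Usp18 in 4 (0.111, without DKO NKp46 replicate 1).

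Markers of other cells were read in the same way, beside 2.47% of all tested genes called higher and 2.33% lower. Of 16 T cell genes 6 were called higher in CCR6 (Lat, Cd3d, Cd3e, Cd3g, Cd247 and Trdc) and 3 lower (Trbc1, Cd8a and Cd8b1), and their summed level was 2889 to 3025 CPM in CCR6 and 1195 to 1475 CPM in NKp46. In CCR6 most of that sum was Lat, an adaptor of receptor signalling, at 2203, 2160 and 2091 CPM in CCR6 and at 396, 619 and 442 CPM in NKp46 (2.15 ± 0.16, adjusted p = 1.2e-08). Pou2f1 on the opposite strand covers 56.4% of the exon bases of Cd247. Cd3e, a chain of the T cell receptor complex, was 1.75 ± 0.32 higher (adjusted p = 0.0013), Trac was not called, and Cd8b1 held 1 count over the CCR6 group. The call of Cd3d was lost in each of the 6 fits without 1 library (highest adjusted p = 0.147, without DKO CCR6 replicate 3), and that of Cd3g in 4 (0.0946, without DKO NKp46 replicate 3). Of 16 B cell and plasma cell genes, Blk was called higher (5.96 ± 0.79, adjusted p = 5.0e-05) and Ighm lower, and the sum was 429 to 604 CPM in CCR6 and 617 to 1585 CPM in NKp46. The highest sum was that of NKp46 replicate 3, in which Igkc stood at 444 CPM. Of 19 myeloid genes Cd68 was called lower (sums of 56.7 to 61.8 and 48.3 to 89.2 CPM), with 4 counts of C1qa over the NKp46 group. That call was lost in 5 of the 6 fits without 1 library (highest adjusted p = 0.146, without DKO NKp46 replicate 2). Of 15 epithelial genes Cdh1 was called lower (sums of 31.5 to 53.4 and 23.4 to 140 CPM), with the highest sum in NKp46 replicate 2, where Defa24 stood at 77.5 CPM. Of 17 ILC2 genes Arg1 was called higher and Il4 lower (sums of 681 to 797 and 688 to 746 CPM), and Il13 had no count in any of the 6 libraries. None of 18 stromal, 4 mast cell or 25 ribosomal protein genes was called by edgeR. At an unadjusted p under 0.05 these lists held 1, 1 and 0 genes, DESeq2 called 0, 0 and 0, and limma voom 1, 0 and 0. The stromal sum was 316 to 398 CPM in CCR6 and 238 to 263 CPM in NKp46, and the mast cell sum 4.81 to 5.86 and 6.56 to 12.0 CPM. The part of such cells in the differences above was not tested. In bulk samples, fewer cells of a type and less RNA per cell cannot be told apart.

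The same populations differed in WT mice at 1327 genes, 601 higher and 726 lower in CCR6 (6.23% of tested genes). The DKO and WT comparisons share no library. They shared 579 genes called in the same direction, which is 56.7% of the DKO calls and 43.6% of the WT calls, and 945 of the 1022 DKO calls had the same sign in WT. A direct test of the DKO difference minus the WT difference called 90 genes (0.423% of tested genes), 43 higher and 47 lower. Without DKO CCR6 replicate 2 it called 55, and without WT ILC1 replicate 2, which enters only the spread and has the fewest counts of all libraries, it called 228. Of the 90 genes, 45 were called in each of the 12 fits that left out 1 library of these 4 groups. The difference was smaller in DKO than in WT with the same sign for 30, larger with the same sign for 20, and of opposite sign for 40.

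**Figure D3:**
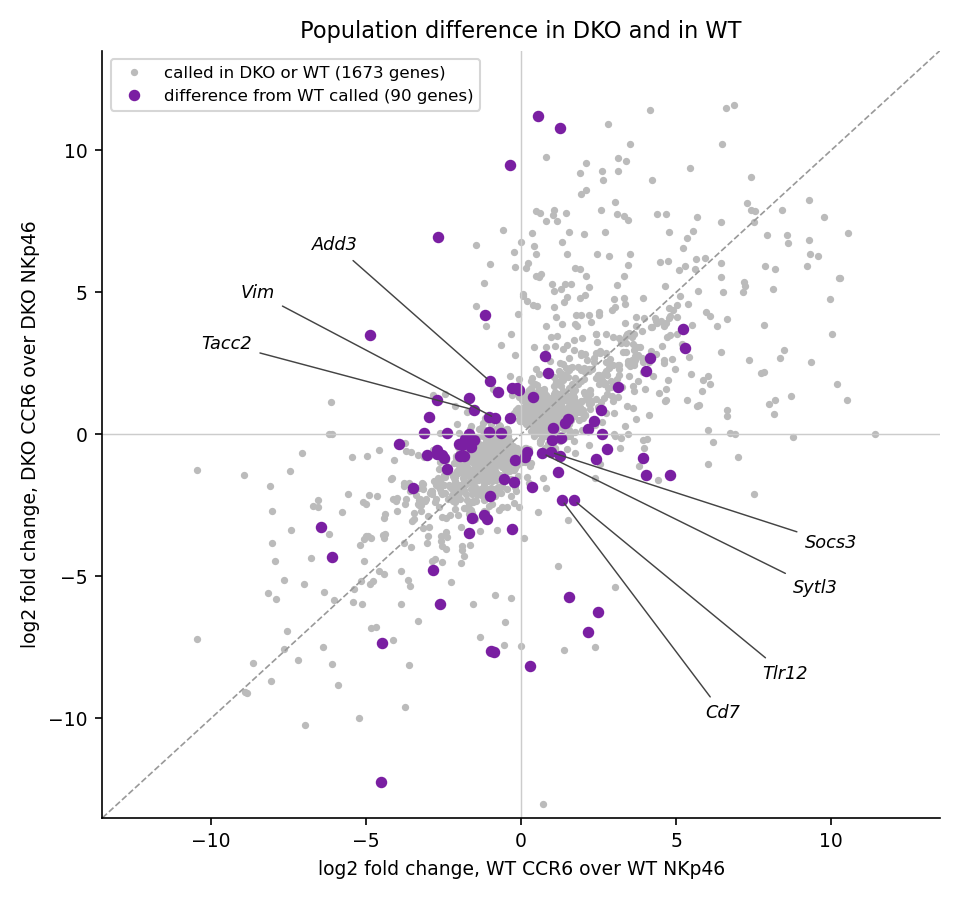
Fitted log2 fold change of CCR6 over NKp46 in WT (x axis) and in DKO (y axis) for the 1763 genes called in either genotype, with the 90 genes whose difference between genotypes was called in purple and a dashed line of equality. The 7 named genes were called in both genotypes in opposite directions and lie in the upper left or lower right of the plot.

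In this fit 7 genes were called in both genotypes in opposite directions, and the difference between genotypes was called for each: Cd7, Add3, Tlr12, Vim, Tacc2, Socs3 and Sytl3. Add3, Vim, Tacc2, Socs3 and Sytl3 were outside the naming rule and were chosen after their values were seen. Cd7 (chromosome 11, 121036747 to 121039418, minus strand), a costimulatory receptor of lymphocytes, stood at 69.2, 56.7 and 69.3 CPM in DKO CCR6 and at 363, 321 and 283 CPM in DKO NKp46. In WT it stood at 404, 551 and 398 CPM in CCR6 and at 174, 212 and 161 CPM in NKp46. The order of the populations was thus turned, from 1.31 ± 0.16 in WT to -2.31 ± 0.17 in DKO, and the difference of -3.62 ± 0.23 was called (adjusted p = 7.9e-09). Each population was also compared between genotypes in the same fit, which called 3.97% of genes in CCR6 and 4.16% in NKp46. Cd7 was lower in DKO than in WT in CCR6 (-2.79, adjusted p = 4.7e-10) and higher in NKp46 (0.82, adjusted p = 0.0033). Add3, which encodes the cytoskeletal protein adducin 3, turned the other way. It stood at 161, 154 and 150 CPM in DKO CCR6, at 47.0, 45.6 and 35.1 CPM in DKO NKp46, at 31.0, 40.6 and 46.3 CPM in WT CCR6 and at 89.5, 77.5 and 69.2 CPM in WT NKp46 (2.87 ± 0.27, adjusted p = 7.4e-06). Vim, which encodes vimentin, and Tacc2 turned like Add3. Tlr12, a Toll-like receptor of profilin, Socs3, a feedback inhibitor of cytokine signals, and Sytl3 turned like Cd7. The DKO calls of Vim, Tacc2 and Socs3 were lost in 4, 6 and 6 of the 6 fits without 1 library, with the highest adjusted p of 0.0906 without DKO NKp46 replicate 3, 0.195 without DKO NKp46 replicate 1 and 0.160 without DKO CCR6 replicate 1. Without a filter on low counts the DKO calls of Tacc2 and Sytl3 were lost (adjusted p = 0.0765 and 0.0884). The differences from WT of Vim, Tacc2 and Socs3 were called in all 12 fits that left out 1 library.

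Of the 24 ligands, 3 had a called difference above 0 (Csf2, Tnf and Hbegf) and 1 below 0 (Ltb). Such calls made up 0.202% and 0.221% of all tested genes. Csf2, which encodes GM-CSF, stood at 83.7, 117 and 66.8 CPM in DKO CCR6, at 128, 182 and 132 CPM in DKO NKp46, at 47.3, 26.8 and 22.2 CPM in WT CCR6 and at 338, 239 and 208 CPM in WT NKp46. It was lower in WT CCR6 than in WT NKp46 (-3.03 ± 0.30, adjusted p = 4.8e-07), while in DKO the difference was -0.73 ± 0.28 and not called (adjusted p = 0.18). The 2 differences differed by 2.30 ± 0.40 (adjusted p = 0.0065). An edgeR fit that also took the replicate number as a block did call the DKO difference of Csf2 (-0.75, adjusted p = 0.0101). Tnf was at 191, 210 and 158 CPM in DKO CCR6 and at 107, 140 and 122 CPM in DKO NKp46, against 122, 79.4 and 82.7 CPM and 186, 204 and 196 CPM in WT. The order of its libraries was turned between genotypes, by 1.64 ± 0.25 (adjusted p = 0.0014), although the DKO difference of 0.60 ± 0.18 missed the threshold (adjusted p = 0.051). Tnf was called by DESeq2 and limma voom (adjusted p = 0.0188 and 0.0263). Hbegf, an EGF receptor ligand that protects the gut epithelium, was 1.64 ± 0.20 higher in DKO CCR6 than in DKO NKp46 (adjusted p = 1.1e-05), and -0.14 ± 0.20 in WT. Ltb, which encodes lymphotoxin beta, was 1.41 ± 0.12 in WT and 0.40 ± 0.12 in DKO (adjusted p = 8.3e-08 and 0.071), a called difference of -1.01 ± 0.17 (adjusted p = 0.0052). The DKO difference of Ltb was called by DESeq2 and limma voom (adjusted p = 0.0283 and 0.0453). For Il17a and Il17f the difference between genotypes was not called (-1.83 and -1.55, adjusted p = 0.76 and 0.65).

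**Figure D4:**
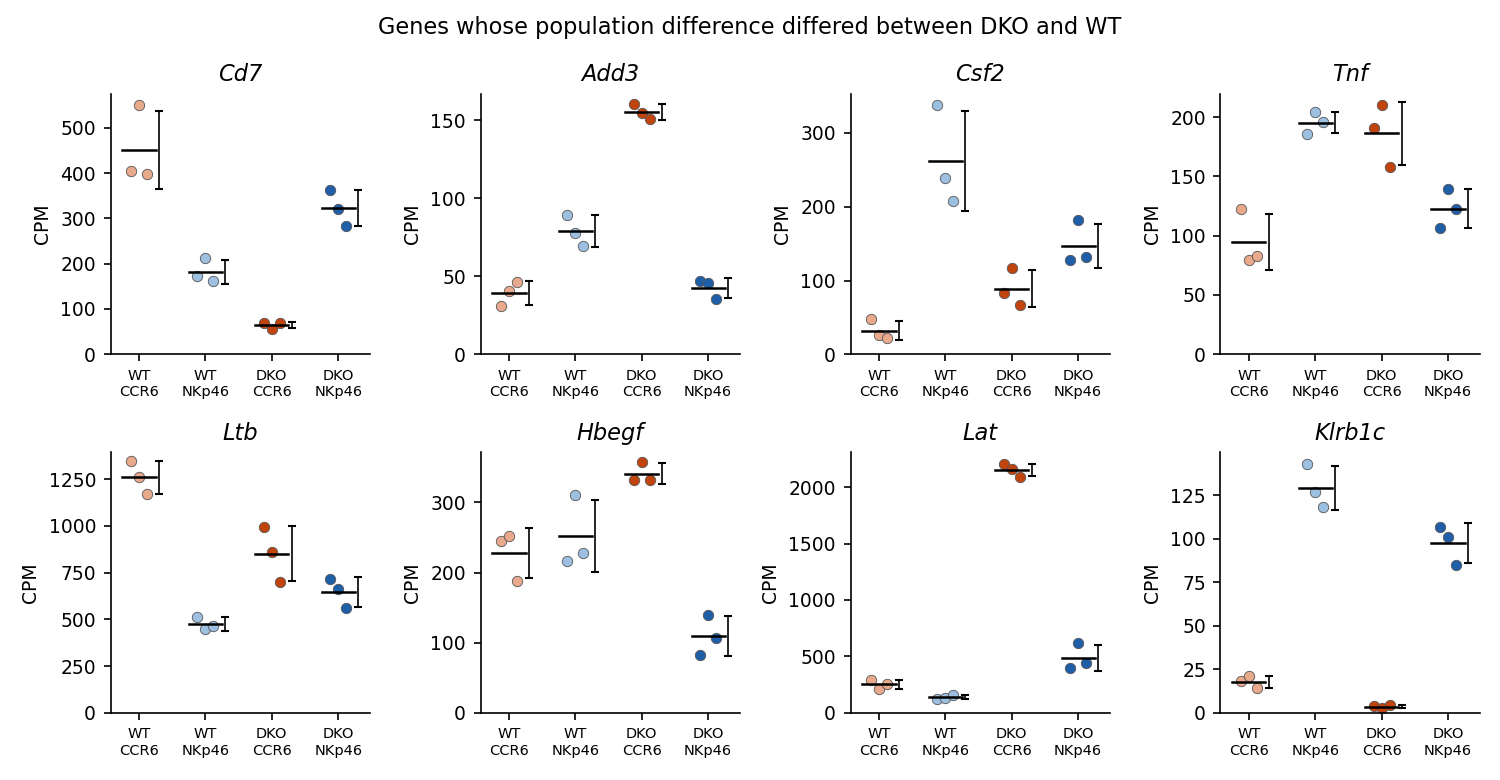
CPM in each library of the 4 groups for 8 genes whose population difference differed between DKO and WT, with points for libraries, thick bars for means and whiskers for 1 SD (n = 3). Cd7 and Add3 show reversed orders in the 2 genotypes, the Csf2 and Ltb groups lie closer together in DKO than in WT, and Lat is highest in DKO CCR6.

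Of the 18 MHC class II genes, H2-Aa and Cd74 had a called difference between genotypes. Such a difference was called for 0.423% of all tested genes. H2-Aa differed less between populations in DKO (3.02 ± 0.24) than in WT (5.29 ± 0.27), with means of 26.5 CPM in DKO NKp46 and 7.54 CPM in WT NKp46 (difference of -2.27 ± 0.33, adjusted p = 9.2e-04). Cd74 also differed less between populations in DKO (-1.53 ± 0.30, adjusted p = 0.017), but through the CCR6 side. Its mean was 767 CPM in DKO CCR6 and 1772 CPM in WT CCR6, against 59.4 CPM in DKO NKp46 and 47.4 CPM in WT NKp46. The call of the Cd74 difference was lost in 5 of the 12 fits without 1 library, with an adjusted p of 0.0896 without DKO CCR6 replicate 2. Of the 32 natural killer receptor genes the difference was called below 0 for Klrb1c, Slamf7 and Cd7 and above 0 for Fcgr3. The Slamf7 difference was not called by limma voom (adjusted p = 0.153) or in a fit of the 12 libraries compared (0.0521), and the Fcgr3 difference was lost in 8 of the 12 fits without 1 library (highest adjusted p = 0.103, without WT NKp46 replicate 3). Klrb1c differed by -4.77 ± 0.20 in DKO and by -2.85 ± 0.18 in WT (adjusted p = 3.7e-04 for the difference), and Ccl5 by -5.99 ± 0.37 and -2.60 ± 0.32 (adjusted p = 4.3e-04). Limma voom did not call the difference for Ccl5 (adjusted p = 0.0995). Ccr9 differed by -1.89 ± 0.22 in DKO and by -3.50 ± 0.23 in WT (adjusted p = 0.010). Lat differed by 2.15 ± 0.16 in DKO and by 0.86 ± 0.16 in WT, and was higher in DKO than in WT in both populations (3.10 in CCR6 and 1.81 in NKp46, adjusted p = 8.3e-11 and 2.8e-07). Cd8b1, a CD8 chain, held 1 count over DKO CCR6 and 214 over DKO NKp46, against 150 over WT CCR6 and 64 over WT NKp46, and its difference between genotypes was called below 0 (adjusted p = 0.0014). Ighm, an immunoglobulin gene, differed by -2.83 ± 0.21 in DKO and by -1.20 ± 0.20 in WT (adjusted p = 0.0039), and the B cell genes beside it are given above. For Ncr1 and Il23r the difference between genotypes was not called (adjusted p = 0.43 and 0.41).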

How the data were processed

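The deposited table holds whole-number read counts per Ensembl gene for 24 bulk RNA-seq libraries, made by the authors with no normalization. STAR 2.7.9a, featureCounts 2.0.3, Salmon 1.5.2 and genome build mm10 are named without roles, per the submitters' processing notes. No source used here states the strand setting, the multi-mapping rule or the annotation release. The kit was SMARTer low input, per the labels' protocols.

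Of 55774 table rows, 168 Ensembl IDs stood on more than 1 row with equal counts, and 1 row per ID was kept, leaving 55487 genes. All columns belonged to a labelled sample (0 unused). Counts were filtered by edgeR 4.0.16 (filterByExpr, by group; 21286 genes), scaled by TMM and fitted in 8 groups of 3 with 16 residual degrees of freedom (R 4.3.3). Quasi-likelihood tests were adjusted by Benjamini-Hochberg over all tested genes. DESeq2 1.42.0 and limma 3.58.1 were alternatives. All totals per library lay between 12.8 and 84.4 M counts (M, 1e6). A group with no count was compared against a floor of 3 counts, which covers counting error only.

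On simulated counts for this comparison (20263 genes), 18 of 50 genes raised 2-fold, 35 of 50 raised 4-fold, 19 of 50 lowered to 0.5 and 34 of 50 lowered to 0.25 were recovered, and 9 of 115 calls were false.

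Named genes were the targeted and sorting genes; up to 12 called genes each way by size with at least 5 CPM and libraries that did not overlap; up to 8 each way for the difference from WT; members of the lists of transcription factors, cytokines, receptors, migration, LTi-like, MHC class II, type 1 and natural killer genes; and up to 6 of each other list by adjusted p. Members of small counts outside that rule were named after their values were seen. The comparison and the lists, some of which came from an earlier analysis, were chosen with earlier results of these data known. Lists carry no test. A few list members are not reported here, and list counts, medians and sums are over the others. Overlaps of exons were read from GENCODE M21 on GRCm38, in which all 202 genes examined were found. Of these, 56 shared exon bases with another gene. Apart from Nr1d1, overlaps are stated only for the 7 genes with at least 20% of exon bases shared. Bhlhe41 (19.05%), Ccr9 (18.83%) and Xcl1 (18.74%) lay just under that threshold. The printed sequences come from RefSeq (GRCm38.p6).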

Additional observations from a re-analysis of the deposited data

Results flagged for a closer look

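For the genes below, the difference between CCR6 and NKp46 was not the same in DKO and WT mice by a direct test (edgeR's quasi-likelihood test, adjusted p under 0.05). Values are the DKO log2 difference minus the WT log2 difference.

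Among genes of signalling and effector function it was 2.30 for Csf2, 1.64 for Tnf, 1.78 for Hbegf and -1.01 for Ltb. It was 1.61 for the homing receptor Ccr9, -3.39 for the chemokine Ccl5 and 1.28 for the adaptor Lat. Among natural killer receptor genes it was -3.62 for Cd7, -1.92 for Klrb1c, -2.87 for Slamf7 and 1.22 for Fcgr3. It was -1.17 for Cd160 of the type 1 list and -1.38 for the checkpoint receptor Lag3. For antigen presentation it was -2.27 for H2-Aa and -1.53 for Cd74, and -1.63 for the immunoglobulin gene Ighm. Further members of the lists were Bcl2 at -0.97, Bst2 at -1.74, Ramp1 at -1.46, Cd44 at 0.67 and Pfkp at 0.93.

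Of the genes called in opposite directions in the 2 genotypes, Add3 differed by 2.87, Vim by 1.40, Tacc2 by 2.38, Sytl3 by -1.35, Socs3 by -1.58 and Tlr12 by -4.02.

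Genes of at least 5 CPM named for the size of this difference were Bmp4 at 3.92, Ak7 at 3.61, Lrrn2 at 3.58, Avil at 3.19, Crmp1 at 3.16 and Rbm24 at 2.96, and, below 0, Hpgds at -5.48, Pard3 at -4.77 and Lypd6b at -3.30. For Ociad2, Fblim1, Ankrd35, Gzma, Zfp683 and the T cell gene Cd8b1 1 group held at most 1 count and no size is given. Their adjusted p-values were 0.00781, 0.0299, 0.0287, 0.0385, 0.0255 and 0.00144.

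Lrrn2, Crmp1, Rbm24 and Cd8b1 kept the call in each of the 12 fits without 1 library. The call was lost in 12 of 12 for Pfkp, 11 for Cd44 and Fblim1, 10 for Ramp1, Avil and Ankrd35, 9 for Gzma, 8 for Bmp4, Pard3 and Lypd6b, 7 for Ak7 and Zfp683, 6 for Hpgds, 5 for Bcl2, 4 for Lag3 and 1 for Cd160. By limma voom it was lost for Gzma (adjusted p = 0.586), Zfp683 (0.292), Ak7 (0.246), Lypd6b (0.0662) and Ankrd35 (0.0531). Without a filter on low counts it was lost for Cd44 (0.228), Avil (0.117), Gzma (0.114), Bmp4 (0.0724) and Ak7 (0.0702). In a fit of the 12 libraries compared it was lost for Zfp683 (0.138) and Gzma (0.0621), and without repeated IDs for Ramp1 (0.0539). Ociad2, a mitochondrial and endosomal protein, was at 2.72, 1.21 and 2.20 CPM in DKO CCR6 with no count in DKO NKp46, and had means of 4.45 and 5.65 CPM in WT CCR6 and WT NKp46.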

How the results depend on the processing

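The count of 1022 called genes was 1753 by DESeq2 (944 higher), and the leave-one-out range was 659 to 829. It was within 1.5 times of the main count by DESeq2's size factors in edgeR (1032), no filter (1066), at least 1 CPM in 3 libraries (1156), limma voom (1330), the 6 libraries alone (1136), no repeated IDs (1038) and without WT ILC1 replicate 2 (1493). The WT count of 1327 was 2081 by limma voom and 2432 with only the groups compared (leave-one-out range 891 to 980). The 90 genes differing between genotypes were 178 without a filter, 325 by DESeq2, 147 by limma voom, 220 with only the groups compared and 228 without WT ILC1 replicate 2 (leave-one-out range 55 to 94). The cause of these changes was not tested. The counts called stayed at 16 to 17 for LTi-like, 7 to 8 for MHC class II, 19 to 22 for type 1 and 18 to 21 for natural killer receptor genes over the fits without 1 library. Of the single genes, 7 uncalled values changed sign between fits without 1 library: Nr1d2 ranged from -0.46 to 0.00596, Cd44 from -0.00454 to 0.0865, Crmp1 from -0.23 to 0.24, Ciita from -0.18 to 0.34, Eomes from -2.36 to 2.89, Igkc from -3.77 to 0.49 and Defa24 from -3.27 to 1.46 (1.06 by limma voom). Id2 passed the threshold in every alternative for this comparison that kept all 6 libraries. Tnf passed it by DESeq2, limma voom, no filter, the stricter filter, the 6 libraries alone, no repeated IDs and without WT ILC1 replicate 2. DKO calls were also lost without a filter (Il1r1, Lpl, Ret, Cd3d, Cd68, Icam2, Nfkbie, Rrm2, Tnip1, Traf1, Vsir, Bhlhe41, Sytl3 and Tacc2), in the 6 libraries alone (Il18rap, Fcgr3, Acsl1, Cd68, Bcl2a1b, Cd3g, Icam2, Nfkbie, Oas3, Traf1, Vsir, Ccl3 and Pdcd1), by limma voom (Cd3d, Cd68, Bcl2a1b, Cd8a, Ccl3 and Ankrd35) and without repeated IDs (Oasl2). Alternatives for the WT comparison, the list counts and repeated IDs in gene results were chosen after seeing the data.

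Replicate numbers recur across groups, but the labels do not say that a number marks a shared animal or day. Deviations of same-numbered CCR6 and NKp46 libraries correlated at 0.0467, 0.0272 and 0.0628 in DKO and at 0.0764, 0.0556 and 0.0576 in WT, each library correlating best with its own number. With a replicate block 1102 genes were called in DKO, 1389 in WT and 119 for the difference. Of the single genes, Csf2, Ltb, Tnf and Id2 gained the DKO call with the block (adjusted p = 0.0101, 0.0319, 0.0397 and 0.0389), Cd3d, Tacc2 and Oas1a lost it (0.0565, 0.0504 and 0.0536), and Ankrd35 and Pard3 lost the call of the difference (0.0610 for both). The block changed no other call of a gene examined.

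The DKO NKp46 libraries held fewer counts than the CCR6 libraries, which limits genes at or near 0 there.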
